A study of Medicago truncatula with 24 samples.

Results

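The peaks of acetylated histone H3 (H3ac) in embryos of *Medicago truncatula* line A17 were compared between stage S1, before the embryos acquired desiccation tolerance, and stage S2, after it. All intervals and summits of the 4 deposited H3ac lists that lie on chromosomes 1 to 8 were taken, which gave 6620 peaks. They belong to 6875 H3ac peaks on all sequences and to 38053 peaks in the 12 lists of the series. A peak is a stretch where DNA pulled down with the antibody (IP) was counted more often than in the same chromatin without antibody (INPUT), and its summit is the base with the highest pileup. The embryos of both stages were dissected from A17 seeds produced at 20°C by day and 18°C by night or at 26°C by day and 24°C by night, and by the series record a sample pooled at least 50 embryos. At 20°C, S1 was collected 17 and S2 26 days after pollination. At 26°C, S1 was collected 14 and S2 17 days after pollination. The step from S1 to S2 therefore took 9 days at 20°C and 3 days at 26°C, and the S1 embryos of 20°C and the S2 embryos of 26°C had the same age. Each condition had 1 IP library and 1 INPUT library here, although the series record speaks of 2 replicates. A stage difference is therefore a ratio between single libraries, seen at both temperatures or at one, with no replicate error. A two-sided exact sign-flip test over 2 pairs cannot give a p below 0.5, so no p is given.

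Acetyl groups on the tail of histone H3 weaken its hold on DNA and are recognised by proteins that promote transcription, and in plants H3ac is best known from the start of transcribed genes. H3K27me3, the mark measured on the same embryos in the other lists of the series, is laid down by the Polycomb machinery over silent genes. Ribosomal RNA (rRNA) genes stand in long arrays of near-identical copies, of which cells keep some open and some closed, and the DNA around centromeres is poor in genes and rich in repeats. A desiccation-tolerant embryo survives near-complete loss of water, and this ability is gained while the seed fills.

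The S1 lists held more peaks than the S2 lists at both temperatures, and most of the excess was in peaks shorter than 1 kb. At 20°C the S1 list held 4376 peaks and the S2 list 928, a log2 ratio of S2 to S1 of −2.24. At 26°C they held 786 and 530, a log2 ratio of −0.57. S2 had fewer peaks on 8 of 8 chromosomes at either temperature, with log2 ratios from −3.01 to −1.59 at 20°C and from −1.38 to −0.22 at 26°C. The S1 list of 20°C thus stands apart from the other 3, which lie between 530 and 928 peaks.

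The length under peaks hardly differed. Peaks covered 3.43 Mb at S1 and 3.14 Mb at S2 at 20°C, which is 0.806% and 0.736% of chromosomes 1 to 8. At 26°C they covered 2.48 and 2.35 Mb, or 0.582% and 0.552%. The log2 ratios of S2 to S1 were −0.13 and −0.07. Covered length was lower at S2 on 6 of 8 chromosomes at 20°C and on 3 of 8 at 26°C. The sign at 20°C turned positive when weak or short peaks were left out, for example 0.63 with a −log10 p of at least 5 and 0.51 with peaks of at least 509 bp, and at 26°C it was 0.040 with a fold enrichment of at least 3.

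The S2 peaks were wider. The median width was 388 bp at S1 and 1040 bp at S2 at 20°C, and 839 and 1792 bp at 26°C. Of the peaks under 1 kb, S1 had 4128 and S2 445 at 20°C, and S1 had 439 and S2 168 at 26°C. Of the peaks of 1 kb or more, S1 had 248 and S2 483 at 20°C, and S1 had 347 and S2 362 at 26°C. The excess of peaks at S1 was therefore in the short class at both temperatures. The widest class went in opposite directions, since peaks of 5 kb or more numbered 90 at S1 and 187 at S2 at 20°C, but 145 at S1 and 106 at S2 at 26°C. Such peaks held 38.5% of the covered length at S1 of 20°C and 68.8% to 71.2% in the other 3 lists. The shortest peak also differed between the lists, at 315, 481, 435 and 509 bp for S1 and S2 of 20°C and S1 and S2 of 26°C. With peaks of at least 509 bp only, the log2 ratio of peak numbers was −0.25 at 20°C and −0.29 at 26°C. The called peaks were alike in their median fold enrichment of IP over INPUT. It was 3.14 (S1) and 3.17 (S2) at 20°C and 3.10 (S1) and 2.87 (S2) at 26°C. Only stretches that passed the p-value cut of the authors enter these medians, so they cannot show whether acetylation was equally high at the stages. The study's read table lists S1 of 20°C as the condition with the fewest IP reads and the deepest INPUT of the 4. At 26°C, S1 also had fewer IP reads than S2, but a shallower INPUT. IP depth thus went with stage at both temperatures, and depth and stage cannot be told apart here. Over the 4 lists, the median and the shortest width rose in the order of the IP reads. The part of depth in these numbers was not tested.

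**Figure D1:**
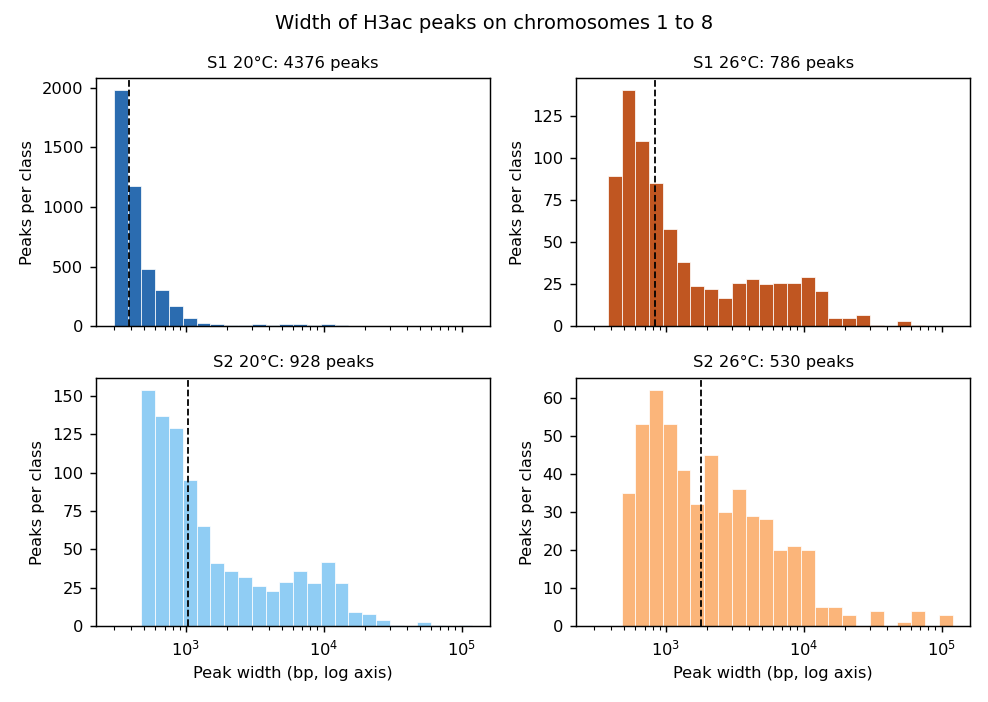
Number of H3ac peaks (vertical axis, a scale of its own in each panel) in classes of peak width in bp (horizontal log axis), for S1 (top) and S2 (bottom) at 20°C (left) and 26°C (right). The dashed lines mark the medians of 388, 1040, 839 and 1792 bp for S1 and S2 of 20°C and S1 and S2 of 26°C. The S1 list of 20°C is almost all in the narrowest classes, and the other lists have a long tail of wider peaks.

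The position of the summits set S1 of 20°C apart from the other lists. At 20°C, 40.6% (exact 95% interval 39.1 to 42.0) of the S1 summits lay in an annotated gene and 8.08% (6.41 to 10.03) of the S2 summits did. At 26°C the shares were 12.8% (10.6 to 15.4) at S1 and 53 of 530 (interval 7.58% to 12.9%) at S2, with intervals that overlap. These intervals cover counting error only. Genes cover 33.251% of the chromosomes, so that S1 of 20°C was the only list with more summits in genes than their cover, and the other 3 were far below it. In protein-coding genes alone, which cover 30.533%, the shares were 37.6% and 5.06% at 20°C and 8.65% and 6.79% at 26°C. S2 was lower than S1 at both temperatures in either count.

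The median distance from a summit to the nearest protein-coding gene, with 0 for summits in one, was 2161 bp at S1 and 21317.5 bp at S2 at 20°C, and 17861 and 19412 bp at 26°C. For the summits outside protein-coding genes it was 8042 bp (S1) and 22619 bp (S2) at 20°C, and 20559 bp (S1) and 20585 bp (S2) at 26°C. The 2 kb beside protein-coding genes make up 22.6% of the chromosomes and held 11.5% and 2.26% of the summits at 20°C and 4.45% and 3.77% at 26°C. Together, protein-coding genes and the 2 kb beside them make up 53.2% of the chromosomes and held 49.2% and 7.33% of the summits at 20°C and 13.1% and 10.6% at 26°C, below their cover in each of the 4 lists. Within protein-coding genes the summits of S1 were closer to a gene end. The median distance to the nearer end was 610 bp at S1 and 4384 bp at S2 at 20°C, and 1309 and 3576 bp at 26°C. Within 1 kb of an end lay 67.5% of the S1 and 34.0% of the S2 summits in genes at 20°C, and 44.9% and 19.4% at 26°C. The genes with S2 summits were also longer, with median lengths of 4132 and 19606 bp at 20°C and 8917 and 14949 bp at 26°C, against 3203 bp for all protein-coding genes. Expressed as a share of the gene's length, where 0.25 is the value of an even spread, the median distance to the nearer end was 0.211 (S1) and 0.268 (S2) at 20°C. At 26°C it was 0.283 (S1) and 0.277 (S2), so there the closeness of the S1 summits to gene ends went with the length of the genes. As the annotation used here gives no strand, the start of a gene could not be told from its end.

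The overlap of the stages was counted as the share of peaks that share at least 1 bp with a peak of the other stage. At 20°C, 308 of 4376 S1 peaks (7.04%, 6.30 to 7.84) overlapped an S2 peak, and 270 of 928 S2 peaks (29.1%) overlapped an S1 peak. At 26°C, 238 of 786 S1 peaks (30.3%) and 225 of 530 S2 peaks (42.5%) overlapped the other stage. The summit itself lay within a peak of the other stage for 6.24% and 20.2% of S1 and S2 peaks at 20°C and for 22.5% and 32.3% at 26°C, whereas those peaks cover less than 1% of the chromosomes. Wide peaks overlapped more often. At 20°C, 3.88% of S1 summits of peaks under 1 kb, 35.4% of those of 1 to 5 kb and 63.3% of those of 5 kb or more lay within an S2 peak. At 26°C these shares were 9.57%, 33.7% and 46.2%.

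The S1 peaks that overlapped S2 were wider and less often in genes than those that did not. At 20°C, S1 peaks with an S2 overlap had a median width of 826 bp and 6.82% of their summits in a protein-coding gene, against 382 bp and 39.97% for S1 peaks without one, and 172 of the 308 were still under 1 kb. At 26°C the same values were 3486 bp and 4.62% against 683.5 bp and 10.4%. For S2 peaks the difference in width was of the same kind, 2933 against 905.5 bp at 20°C and 3231 against 1256 bp at 26°C. The share in genes was alike for S2 peaks with and without an S1 overlap, 5.19% and 5.02% at 20°C, and 5.33% (2.79 to 9.13) and 7.87% (5.11 to 11.5) at 26°C.

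Where 1 S1 peak overlapped 1 S2 peak and neither overlapped another, the peaks were compared directly. There were 177 such pairs at 20°C and 104 at 26°C. The summits were a median of 325 bp apart at 20°C and 876.5 bp at 26°C, and 42.4% and 21.2% were within 200 bp. The S2 peak was the wider of the pair in 128 of 177 at 20°C (median log2 ratio 0.54) and in 50 of 104 at 26°C (median −0.02). The median log2 ratio of fold enrichment was 0.03 and −0.17. Its quartiles were −0.39 and 0.41 at 20°C and −0.49 and 0.25 at 26°C, and it was higher at S2 in 92 of 177 and 40 of 104 pairs. The height of these pairs thus differed in either direction, and widening at S2 was seen at 20°C and not at 26°C. Peaks that overlapped more than 1 peak of the other stage are not in these pairs.

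The 4 lists were not more alike within a stage than between stages. The shared length as a share of the joint length of 2 lists (Jaccard index) was 0.230 for S1 and S2 at 20°C, 0.369 for S1 and S2 at 26°C, 0.238 for S1 at both temperatures and 0.371 for S2 at both temperatures. It was highest, 0.401, for S2 of 20°C and S1 of 26°C, which differ in both stage and temperature. It was lowest, 0.225, for S1 of 20°C and S2 of 26°C, the embryos of equal age. The 3 values above 0.3 are the 3 pairs without the S1 list of 20°C.

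Overlapping peaks of the 4 lists were merged into 5424 regions of 6.77 Mb in all. Most regions were private to a list, as 4944 of them (91.2%) were found in 1 list, 283 in 2, 104 in 3 and 93 in all 4. Of the 4944, 3964 were in S1 of 20°C alone, 450 in S2 of 20°C, 341 in S1 of 26°C and 189 in S2 of 26°C. The 93 regions in all 4 lists are 1.71% of the regions but hold 25.7% of the length. Regions at S1 at both temperatures and at neither S2 (S1 only) numbered 57, and regions at S2 at both temperatures and at neither S1 (S2 only) numbered 47. Which number was larger depended on the peaks kept. They were 17 and 52 with 530 peaks in each list, and 25 and 51 with peaks of at least 509 bp. They were 42 and 25 with a fold enrichment of at least 3.

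**Figure D2:**
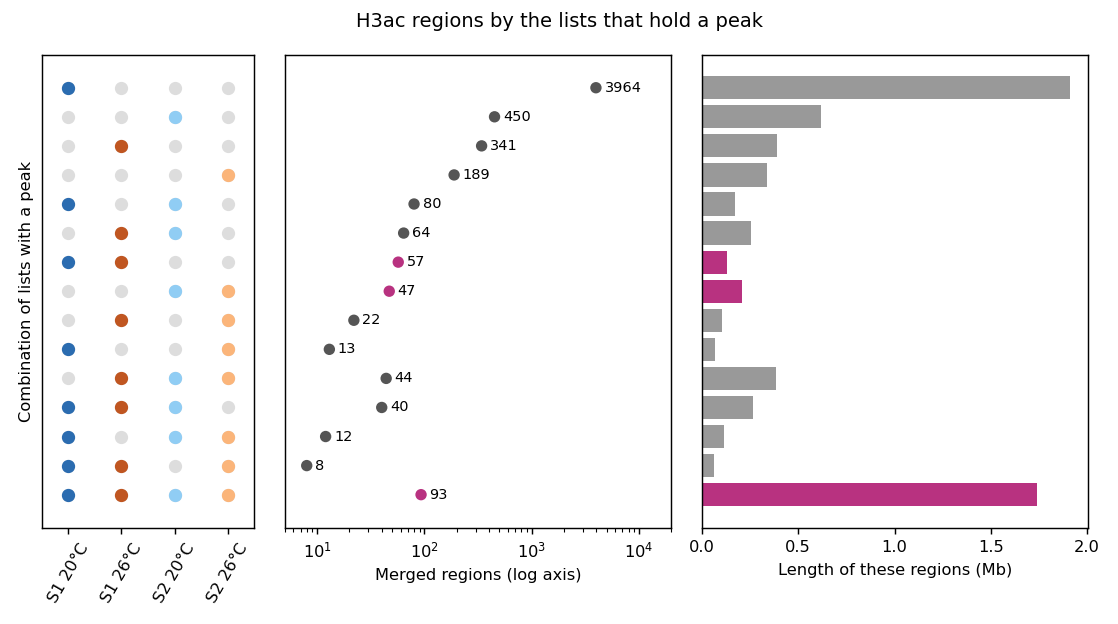
Each row is a combination of the 4 H3ac lists (coloured dots at left mark the lists with a peak), with the number of merged regions (middle, log axis) and their length in Mb (right). The 57 S1-only, 47 S2-only and 93 all-4 regions are in purple. The 3964 regions of S1 at 20°C alone and the 93 regions of all 4 lists are the largest 2 in length.

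A region seen at one stage at 20°C seldom showed the same stage difference at 26°C. Of 4042 regions with S1 and without S2 at 20°C, 57 (1.41%) had S1 without S2 at 26°C, 13 had the reverse, and 3964 had no peak in either list of 26°C. Of 605 regions with S2 and without S1 at 20°C, 47 (7.77%) had the same pattern at 26°C and 64 (10.6%) the opposite one. Counted from 26°C, 57 of 502 regions with S1 and without S2 (11.4%) had the same pattern at 20°C and 64 (12.7%) the opposite one. Of 261 with S2 and without S1 at 26°C, 47 (18.0%) had the same and 13 (4.98%) the opposite pattern. For S2 regions of 20°C and S1 regions of 26°C the opposite pattern was thus more frequent than the same one, and for the other groups it was less frequent. The 57, 47, 13 and 64 regions are the same ones counted from either temperature, so these groups are not separate findings.

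The regions that did repeat differed in kind between the stages. The 57 S1-only regions had a median width of 891 bp and 36 were shorter than 1 kb, whereas the 47 S2-only regions had a median width of 3773 bp and 0 were under 1 kb. A protein-coding gene was overlapped by 18 S1-only regions (31.6%, 19.9 to 45.2) and by 5 S2-only regions (10.6%, 3.55 to 23.1), against 33.1% of all 5424 regions. The S1-only share was thus near that of all regions, and the S2-only share was below it. However, 3964 of the 5424 regions were in S1 of 20°C alone, and 1649 of these overlapped a protein-coding gene. Among regions private to another list, 29 of 450 (S2 of 20°C), 38 of 341 (S1 of 26°C) and 20 of 189 (S2 of 26°C) did. The S2-only share was within the range of these lists. All values for all regions in this paragraph carry the same weight of S1 of 20°C. The median distance from the region's centre to the nearest protein-coding gene was 5557 bp for S1-only and 23575 bp for S2-only regions, and 3950 bp for all regions. The surrounding 1 Mb held a median of 62 and 29 protein-coding genes, and 66 for all regions. The shares with any H3K27me3 peak in the 8 lists of that mark were close, at 31 of 57 (54.4%) and 30 of 47 (63.8%), against 33.6% of all 5424 regions. All regions had a median width of 434.5 bp. A wider region has more room to meet a peak of that mark, and width was not adjusted for. S1 of 20°C has the shortest peaks of the 4 lists. Without that list, an S1-only region needed a peak in S1 of 26°C alone, whereas an S2-only region still needed both S2 lists. By these unlike rules, S1-only regions had a median width of 628.5 bp and 14.1% overlapped a protein-coding gene, against 4548 bp and 10.2% for S2-only regions. Regions found in 1 list had median widths of 381 and 791.5 bp for S1 and S2 of 20°C, and 628 and 1070 bp for S1 and S2 of 26°C.

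S1-only regions were also better matched in position between the temperatures. Their 20°C and 26°C summits were a median of 154 bp apart, and 35 of 57 (61.4%) were within 200 bp. For S2-only regions the median was 756 bp and 7 of 47 (14.9%) were within 200 bp. Of the 18 S1-only regions over a protein-coding gene, 14 (77.8%) had summits within 200 bp. Shorter peaks leave less room for a distance between summits, and this was not adjusted for.

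**Figure D3:**
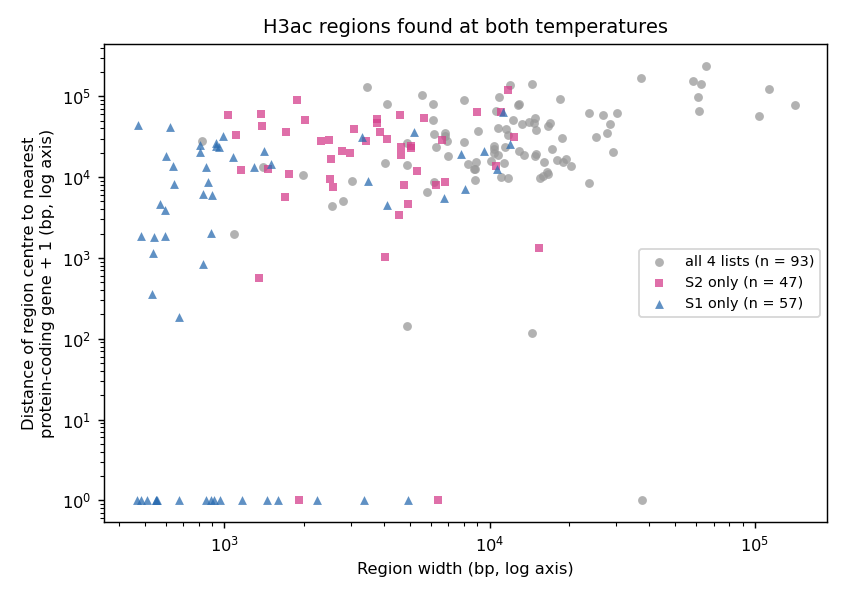
Width in bp (horizontal log axis) and distance in bp of the region's centre to the nearest protein-coding gene plus 1 (vertical log axis) for the 57 S1-only regions (triangles), the 47 S2-only regions (squares) and the 93 regions in all 4 lists (circles). Points at the bottom have their centre in a gene. S1-only regions reach down to the shortest widths, and the regions of all 4 lists are the widest, with a median of 11931 bp.

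The S1-only region with the strongest peaks was 484 bp long, chromosome 7:45392860-45393343 of the MtrunA17r5.0 assembly. Its fold enrichment was 11.3 at S1 of 20°C and 29.3 at S1 of 26°C, with no peak in either S2 list, and its summits at 45393128 and 45393118 were 10 bp apart. It lies 1879 bp from the nearest protein-coding gene, and all 8 H3K27me3 lists have a peak there. A second S1-only region outside genes, chromosome 6:21282573-21283557, had fold enrichments of 5.42 and 5.70 and was 31952 bp from a protein-coding gene. Of the 5 S1-only regions with the highest lowest fold enrichment, the other 3 are in genes described in the next paragraphs.

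The leading S2-only regions were wider and of lower enrichment. The first, chromosome 8:22321477-22324888 (3412 bp), had fold enrichments of 4.23 at S2 of 20°C and 4.03 at S2 of 26°C and lies 27859 bp from a protein-coding gene. The next were chromosome 7:18022822-18027418 (3.88 and 3.64), chromosome 7:25623561-25628887 (3.99 and 3.64), chromosome 4:20258616-20274005 (7.05 and 3.44) and chromosome 7:16815574-16827989 (4.79 and 3.38). The region on chromosome 4 holds a protein-coding gene, and the other 4 hold none. The first S2-only region lies just before a 20353 bp region on the same chromosome that is found in all 4 lists, chromosome 8:22327162-22347514.

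Protein-coding genes that held a peak were more at S1 than at S2. Among 31728 such genes, S1 of 20°C had 1647 and S2 of 20°C had 54, which is 5.19% and 0.17% of them. At 26°C the numbers were 66 and 40, or 0.208% and 0.126%. For 22 genes (0.0693%) both S1 lists had a peak in the gene, and neither S2 list had one in it or within 3 kb of it. The reverse was found for 2 genes (0.0063%), and 3 genes (0.00946%) had a peak in all 4 lists. The gene table used here gives symbols and classes but no descriptions, so that no role can be stated for the genes named below.

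The genes were then compared between the lists, with the position of their summits. Of the 66 genes of S1 at 26°C, 31 (47.0%) were among the 1647 genes of S1 at 20°C, which hold 5.19% of all protein-coding genes, and 14 of the 31 had summits within 200 bp. Of the 54 genes of S2 at 20°C, 20 (37.0%) were among the S1 genes of 20°C, 9 of them with summits within 200 bp. Of the 40 genes of S2 at 26°C, 9 (22.5%) were among the S1 genes of 20°C, 2 of them with such summits, and 9 were among the S1 genes of 26°C, 1 with such summits. S2 of 20°C and S1 of 26°C shared 14 genes, 3 of them with such summits. The S2 lists shared 9 genes, 0 of them with summits within 200 bp. The share of genes with matching summits was thus alike between the S1 lists (45.2%) and between the stages of 20°C (45.0%).

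The 22 S1-only genes lie on 7 chromosomes and have a median length of 2823 bp. Their peaks had a median width of 611 bp, and 28 of 44 summits were within 1 kb of a gene end. For 13 genes the 20°C and 26°C summits were within 200 bp, and the median distance was 131.5 bp. For 19 genes both summits lay in the gene, for 16 they were nearer to the same end, and for 13 the q-value was at most 0.05 in both lists. No H3K27me3 list had a peak in 11 of the 22. Over all protein-coding genes, 80.2% had no H3K27me3 peak, as did 69.3% of the 1647 genes with a peak at S1 of 20°C and 37.9% of the 66 at S1 of 26°C. The S1-only genes thus lay between the values of the lists they come from. At S2 the share without H3K27me3 was lower, at 14.8% of 54 genes at 20°C and 8 of 40 genes at 26°C. Genes with S2 summits were also longer, as given above, and gene length was not adjusted for.

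LOC25494055 (chromosome 4:57099131-57100685) came first, with fold enrichments of 7.07 at S1 of 20°C and 7.46 at S1 of 26°C and summits 15 bp apart. LOC25499519 (chromosome 7:50490099-50493170) had 7.45 and 5.72, with summits 128 bp apart. LOC25489828 (chromosome 3:46392594-46394068) had 5.91 and 5.26, with summits 73 bp apart. In these 3 genes the peaks were 427 to 975 bp wide and had no H3K27me3 peak in any list. LOC25488393 (chromosome 2:23720644-23723800) had 4.93 and 4.83, and LOC25493281 (chromosome 4:45472079-45473881) had 4.55 and 5.05. Over all 22 genes, the fold enrichment was higher at 20°C in 17 and lower in 5.

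Among the S1-only genes, the difference between the temperatures was widest in LOC25502506 and LOC11417020. LOC25502506 (chromosome 8:24482531-24484305) had 7.97 at 20°C and 3.51 at 26°C with summits 120 bp apart, and LOC11417020 (chromosome 8:48572461-48576521) had 6.40 and 2.49 with summits 157 bp apart. LOC25487248 (chromosome 2:38423464-38427459) had 5.80 and 4.39, and LOC11408110 (chromosome 8:47779128-47781818) had 5.37 and 3.47. The summits of LOC11408110 were 9 bp apart, and those of LOC25487248 were 533 bp apart. The differences in the genes below were also smaller than in LOC25502506 and LOC11417020. LOC25502694 (chromosome 8:26230735-26232432) had 4.40 and 4.09, LOC11407679 (chromosome 6:3614131-3615689) had 4.29 and 3.21, LOC11415024 (chromosome 7:41653852-41656073) had 4.43 and 3.15, and LOC25493624 (chromosome 4:50320817-50322575) had 4.40 and 2.63. LOC25496891 (chromosome 6:39668491-39671781) had the lowest value at 26°C, 2.21 against 3.64 at 20°C, with summits 8 bp apart. LOC120579984 (chromosome 4:50651545-50653400) had 3.82 and 4.11, with summits 835 bp apart.

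The remaining 7 S1-only genes had their summits at different places at the 2 temperatures. The summits were 18190 bp apart for LOC120577004 (chromosome 7:20204734-20217292), with fold enrichments of 3.77 at 20°C and 4.39 at 26°C. They were 13870 bp apart for LOC120578169 (chromosome 1:23901671-23938726), with 3.77 and 3.07, and 10274 bp for LOC112420119 (chromosome 7:19263428-19276966), with 2.94 and 3.95. LOC120579653 and LOC120579654 on chromosome 3 overlap each other and share their peaks (4.66 and 2.43), as do LOC25490945 and LOC25490950 on chromosome 3 (2.52 and 2.33). Overlapping genes cannot be told apart by a peak, so these 4 symbols count 2 places.

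**Figure D4:**
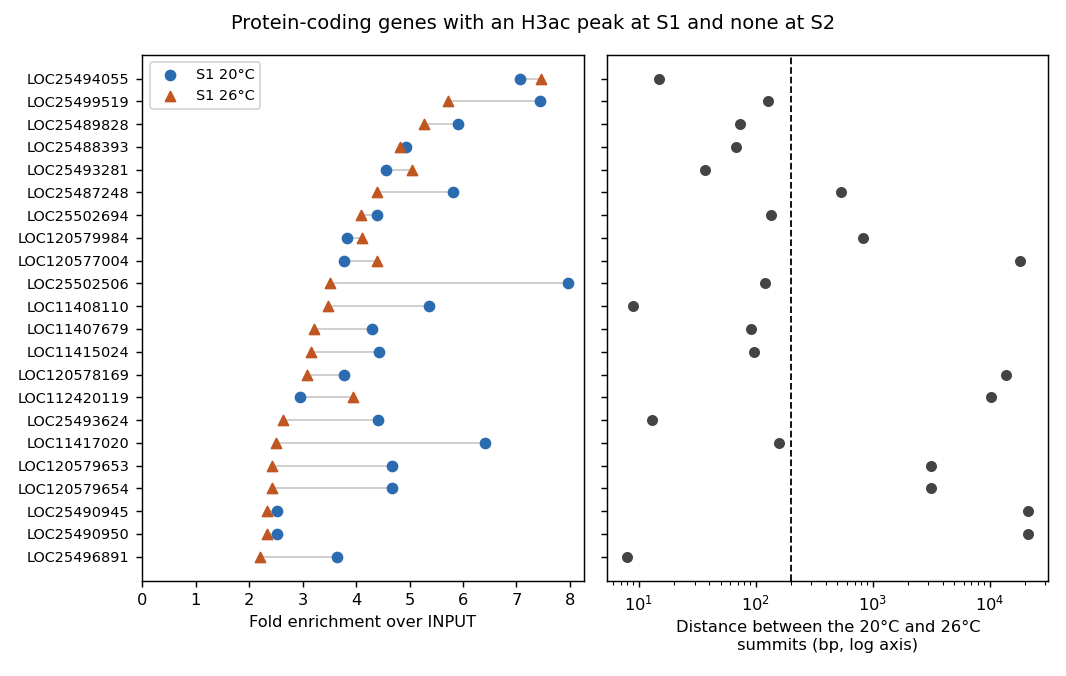
The 22 protein-coding genes with an H3ac peak in both S1 lists and in neither S2 list, from the highest (top) to the lowest smaller fold enrichment. The left panel gives the fold enrichment of IP over INPUT at S1 of 20°C (circles) and S1 of 26°C (triangles), and the right panel the distance between the 2 summits in bp (log axis, dashed line at 200 bp). Summits were within 200 bp in 13 genes.

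The S2-only genes did not have their summits at a shared place. LOC112422660 (chromosome 4:20267632-20268867) had fold enrichments of 7.05 at S2 of 20°C under a peak of 15390 bp and 3.44 at S2 of 26°C under a peak of 2631 bp, with neither summit in the gene. LOC25479720 (chromosome 7:15589677-15615642) had 3.88 and 2.46, with summits 6245 bp apart. The 3 genes with a peak in all 4 lists were LOC120575977 and LOC25481612, neighbours on chromosome 6, and LOC120579525 on chromosome 3. LOC120579525 (chromosome 3:16827178-16908618) is 81441 bp long, and its highest fold enrichment was 2.83 and 1.49 at S1 and S2 of 20°C and 1.41 and 5.21 at S1 and S2 of 26°C. The −log10 p of these peaks was 429.33, 24.4, 10.7 and 1942.7 in the same order.

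Some protein-coding genes had a peak at the same place at S1 and S2 of 20°C, and those named here were picked after their values were seen. LOC112417792 (chromosome 5:23469126-23564952) had a fold enrichment of 9.01 at S1 and 7.30 at S2 with summits 27 bp apart in peaks of 796 and 610 bp, and no peak at 26°C. LOC11410151 (chromosome 8:49212994-49215304) had 6.92 and 2.82 with summits 23 bp apart, and LOC25493504 (chromosome 8:22968917-22985362) had 4.38 and 3.17 with summits 17 bp apart. On chromosome 5, LOC25480017 (23911733 to 23912206) lay under peaks of 14285 bp at S1 and 14270 bp at S2, with fold enrichments of 8.48 and 6.85, and LOC120580582 (23925289 to 23926907), next to it, had 7.38 and 6.28. At 26°C, LOC25480017 had a peak at S1 and LOC120580582 had none at either stage.

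Genes of most other classes differed less between the stages at 20°C than protein-coding genes did. Long non-coding RNA genes with a peak numbered 57 and 10 of 2561 at 20°C, and 11 and 8 at 26°C. Of 1562 pseudogenes, 98 and 48 had a peak at 20°C, and 34 and 53 at 26°C, so that the direction differed between the temperatures. Of 971 snoRNA genes, which guide the modification of rRNA, 20 and 13 had a peak at 20°C, and 14 and 8 at 26°C. The smallest classes had few peaks. Of 746 tRNA genes, 4 and 0 had a peak at 20°C, and 1 and 6 at 26°C. Of 210 snRNA genes, 1 and 0 had a peak at 20°C, and 0 and 0 at 26°C. Over all 39280 annotated genes the shares were 5.78% and 1.54% at 20°C and 1.27% and 1.61% at 26°C.

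The rRNA genes were the class with the largest share under H3ac peaks, and there S2 was the higher stage. At 20°C, 442 of 1407 rRNA genes (31.4%) lay under S1 peaks and 478 (34.0%) under S2 peaks. At 26°C the numbers were 371 (26.4%) and 516 (36.7%). The log2 ratios of S2 to S1 were 0.11 and 0.48. The copies of an array share their sequence, and only reads with a single place in the genome had been kept by the authors, so the genes of an array are not independent and single copies cannot be told apart with certainty.

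Nearly all of these genes are in 1 array. On chromosome 6:20484236-20711015, with 505 annotated rRNA genes, 418 and 436 genes lay under peaks at S1 and S2 of 20°C and 346 and 500 at S1 and S2 of 26°C. Peaks covered 128 and 135 kb of it at 20°C and 105 and 156 kb at 26°C. At S2 this length was held by fewer peaks, 14 at S1 against 9 at S2 at 20°C and 19 against 4 at 26°C. The largest array, chromosome 2:30674202-30915992 with 765 rRNA genes, had 0, 0, 5 and 0 genes with a peak in S1 and S2 of 20°C and S1 and S2 of 26°C. In an array of 28 genes on chromosome 4:12924697-12946614, 5 and 21 genes had a peak at S1 and S2 of 20°C and 3 and 1 at S1 and S2 of 26°C. In an array of 53 genes on chromosome 4:19272755-19289532 the numbers were 13, 9, 6 and 10 in the same order, and in one of 43 genes on chromosome 5:22743055-22757896 they were 1, 7, 6 and 4. Of these arrays, the one on chromosome 6 had more genes under peaks at S2 at both temperatures, whereas the array of 28 genes on chromosome 4 had more at S2 at 20°C and fewer at S2 at 26°C.

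**Figure D5:**
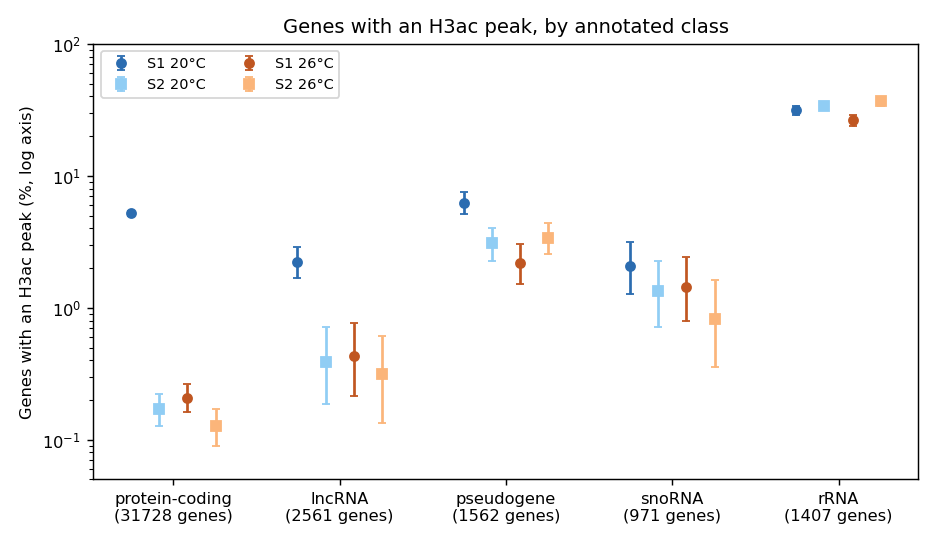
Percent of the annotated genes of 5 classes on chromosomes 1 to 8 with at least 1 H3ac peak in the gene (log axis), for S1 (circles) and S2 (squares) at 20°C (blue) and 26°C (orange). Bars are exact 95% binomial intervals and cover counting error only. Protein-coding genes reach 5.19% at S1 of 20°C and at most 0.208% in the other lists, and rRNA genes are between 26.4% and 36.7% in every list.

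The 93 regions of all 4 lists form the shared base of the stages. They held 33.2% and 46.7% of the covered length at S1 and S2 of 20°C and 54.6% and 58.8% at S1 and S2 of 26°C. Their median width was 11931 bp, 4 of them (4.30%, 1.18 to 10.6) overlapped a protein-coding gene, and the surrounding 1 Mb held a median of 28 such genes. All 93 also had an H3K27me3 peak, in a median of 6 of the 8 lists of that mark, whereas 33.6% of all 5424 regions had any. Those 5424 had a median width of 434.5 bp, and 3964 of them were in S1 of 20°C alone. Neither the difference in width nor the weight of that list was adjusted for. Acetylation and trimethylation peaks at the same place in pooled embryos do not show that both marks sit on the same histone.

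The stage made no uniform difference in these regions. The highest fold enrichment per region had a median of 3.63 (S1) and 4.21 (S2) at 20°C and of 3.60 (S1) and 3.39 (S2) at 26°C. The median log2 ratio between S2 and S1 was 0.13 at 20°C, with 58 of 93 regions higher at S2, and −0.14 at 26°C, with 40 of 93 higher at S2. The sign was the same at both temperatures in 45 of 93 regions, 25 higher and 20 lower at S2. The median log2 ratio of the length under peaks was 0.43 at 20°C and −0.11 at 26°C.

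The region with the highest lowest enrichment among them was chromosome 4:19942551-19955468 (12918 bp), with fold enrichments of 7.02 and 9.87 at S1 and S2 of 20°C and 8.54 and 9.90 at S1 and S2 of 26°C. It was higher at S2 at both temperatures, it lies 80300 bp from a protein-coding gene, and all 8 H3K27me3 lists have a peak there. Chromosome 6:20569900-20711127, which holds 460 rRNA genes of the array described above, had 6.17, 6.88, 6.18 and 7.29 in the same order and was also higher at S2 at both temperatures. Chromosome 8:22327162-22347514 had 4.78, 4.98, 8.64 and 5.83, and chromosome 2:27009555-27019720 had 5.70, 7.05, 4.39 and 4.42. Chromosome 8:27431596-27448188 had 4.92 and 7.05 at 20°C but 11.4 and 4.27 at 26°C, so its stage difference had opposite signs.

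All 8 regions of 50 kb or more were in all 4 H3ac lists and in all 8 H3K27me3 lists, held 0 protein-coding genes, and 1 of them was the rRNA region. In the other 7, S2 of 26°C had 1 unbroken peak each, fewer than S1 of 26°C in 5 and as many in 2. At 20°C, S2 had more peaks than S1 in 4 of the 7, fewer in 1 and as many in 2, so the direction differed between the temperatures. On chromosome 1:22803371-22916985, peaks covered 105.94 and 108.8 kb at S1 and S2 of 20°C and 106.29 and 113.61 kb at S1 and S2 of 26°C. On chromosome 5:23232057-23293570 they covered 38.3 and 53.6 kb at 20°C and 32.3 and 61.5 kb at 26°C, in 4, 5, 7 and 1 peaks. These wide regions were therefore present at both stages and both temperatures, and differed in how far and in how many pieces they were covered.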

How the data were processed

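H3ac ChIP-seq was compared between S1 and S2 with 1 list per condition. Trim Galore, STAR, Picard and MACS2 are named in the submitters' processing notes, and versions are not given in the sources used here. By the methods, the authors kept reads with a single place in MtrunA17r5.0, removed duplicates and called each IP library against its own INPUT at a p-value of 0.01. The script of the study gives the broad option, but the H3ac lists have the narrow format. For each peak the deposited lists hold a fold enrichment, the ratio of the IP to the INPUT signal, besides −log10 values of its p-value and its q-value. The positions of peaks and summits, also deposited by the authors, were the main measure. The number of reads left after the removal of duplicates is unknown here. Fewer IP reads or a deeper INPUT can alter the number and width of peaks.

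Peaks were counted, merged into regions and overlapped by at least 1 bp with each other and with the RefSeq genes annotated on this assembly. The work was done in Python 3.11.15 with pandas 2.3.3, NumPy 2.4.6, matplotlib 3.10.9 and SciPy 1.17.1. A chromosome was taken to end at the last base of any peak or gene on it. Shares carry exact 95% Clopper-Pearson intervals. Interval counts were tested on simulated data and against bedtools 2.31.1, with 10 of 10 equal. Up to 25 protein-coding genes and 5 regions per stage pattern were named, by the highest of their lowest fold enrichment. The members, lists and rules were chosen with earlier results of these data known. Planned lists of genes by function were not analysed here, since the gene table holds no descriptions, and classes of genes were used in their place. No sequences were used. Alternatives limited the peaks to a fold enrichment of 3 or more, a q-value up to 0.05, or a −log10 p from 5 upwards. Others took 530 peaks from every list, no peaks within 10 kb of rRNA genes, other rules of overlap (200 bp, 0.5 of the peak, the summit), merging within 1 kb, 1 kb in place of 3 kb, the summit in the gene, and protein-coding genes only. A minimum width of 509 bp and the removal of the S1 list of 20°C were added after the data were seen.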

Additional observations from a re-analysis of the deposited data

Results flagged for a closer look

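Among a chosen set of measures checked for it, 6 had an S2 to S1 difference of opposite signs at the 2 temperatures. Measures outside this set also turned sign, such as the median fold enrichment of all peaks, with log2 ratios of 0.01 and −0.11. With 1 library per condition these differences between temperatures were not tested. For the number of peaks of 5 kb or more, the log2 ratio between S2 and S1 was 1.06 at 20°C and −0.45 at 26°C, and it was 1.00 and −0.63 for peaks of 10 kb or more. It was −2.55 and 0.11 for the length of peaks within protein-coding genes, and −1.03 and 0.64 for the number of pseudogenes with a peak. In the 93 regions of all 4 lists, the median log2 ratio was 0.13 and −0.14 for fold enrichment and 0.43 and −0.11 for the length under peaks.

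Peaks outside chromosomes 1 to 8 were in no comparison. They numbered 112 and 62 at S1 and S2 of 20°C and 41 and 40 at S1 and S2 of 26°C. Of these, 2, 1, 0 and 7 were on the plastid sequence and 18, 0, 0 and 0 on the mitochondrial one, in the same order.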

How the results depend on the processing

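No paired analysis was possible because every library carries the replicate number 1, so that no number pairs replicates across the stages. The stages were set against each other within each temperature, and with 1 library per condition none could be left out within a group. Of 141 values under the alternatives, 60 moved by less than counting error or 1.5 times, 73 moved further and 8 turned sign, all of them log2 ratios of covered length. Leaving out peaks within 10 kb of rRNA genes moved 0 of 18 values. The peak-number ratio was above 0 under no alternative. The cause of the other moves was not tested.

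For peaks with −log10 p from 5 upwards, the log2 ratio of peaks was −1.44 at 20°C and −0.93 at 26°C, that of covered length at 20°C was 0.63, the overlap was 9.37% of S1 and 24.8% of S2 peaks at 20°C and 47.3% of S2 peaks at 26°C, S1-only, S2-only and all-4 regions numbered 18, 14 and 35, the genes of these patterns 9, 0 and 1, and 50.4% of S1 summits of 20°C were in genes. With a q-value of at most 0.05, the ratios were −1.54, −0.83 and 0.39, the overlaps 8.69% and 25.4% at 20°C and 26.9% of S1 peaks at 26°C, the regions 29, 30 and 52, the genes 13, 1 and 1, and the summit share 46.3%. With a fold enrichment of at least 3, the peak ratios were −2.35 and −0.98, the length ratios 0.042 and 0.040, the overlaps 5.39% and 24.6% at 20°C and 16.1% and 34.1% at 26°C, S2-only and all-4 regions 25 and 35, the genes 14, 1 and 0, and the summit share 43.7%.

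With 530 peaks in each list, the peak ratios were 0 by construction and the length ratios 1.18 and 0.17. The overlaps were 14.2% and 14.5% at 20°C and 36.0% of S2 peaks at 26°C. S1-only, S2-only and all-4 regions numbered 17, 52 and 40, the genes 8, 4 and 1, and the summit share was 54.9%. With a minimum width of 509 bp, the peak ratios were −0.25 and −0.29 and the length ratio at 20°C 0.51. The overlaps were 18.8% and 21.8% at 20°C and 36.0% of S1 peaks at 26°C. S1-only and S2-only regions numbered 25 and 51, S1-only genes 9, and the summit share was 34.1%. An overlap of 0.5 of the peak gave 6.12% and 16.8% at 20°C and 22.1% and 32.1% at 26°C, and the summit within the other stage's peak 6.24%, 20.2%, 22.5% and 32.3%. With the summit in the gene, S2-only and all-4 genes numbered 1 and 1. In protein-coding genes alone the summit shares were 37.6%, 5.06%, 8.65% and 6.79%, and the length ratios −2.55 and 0.11. Without the S1 list of 20°C, S1-only regions numbered 404, and S1-only and all-list genes 49 and 6. A peak in S1 of 26°C alone then sufficed for S1 only, whereas S2 only still needed both S2 lists. Under all of these thresholds and removals of peaks with the 4 lists kept, S1-only regions were the shorter ones. Their median widths were 891 to 1374 bp against 3772.5 to 10511 bp for S2-only regions.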
